A study of Mus musculus with 6 samples.

Results

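The genes described here encode the mitochondrial protein import machinery, taken as every row of the deposited expression table whose symbol begins with Timm or Tomm followed by a digit. The rule found 26 of the 55487 genes in the table. Of these, 9 encode or resemble subunits of the TOM complex of the outer membrane, 6 belong to the TIM23 complex and 3 to the TIM22 complex of the inner membrane. Another 6 encode small TIM chaperones of the intermembrane space, 1 is the cytosolic co-chaperone Tomm34, and 1 is Tomm6os, a noncoding RNA antisense to Tomm6. No row was chosen by its measured values.

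RNA sequencing compared mouse bone marrow-derived dendritic cells labelled as treated with NanoCa with Mock cells labelled as untreated. Per the series title, NanoCa is a lipid nanoparticle with an atypical calcium crystal, studied for immunotherapy that acts through interferon beta. The labels give a dose of 100 μM in a protocol text that stands on the Mock samples as well, and the Mock descriptions carry column names with both words, so whether Mock cells met any particle is not settled by the labels. Every comparison follows the treatment label. All samples share culture in DMEM with 10% serum, female mice as the labelled source, a marrow-derived culture that the labels also call a cell line, and 1 batch date. No strain, engineered allele or exposure time is given, and no label states whether replicates are separate cultures or mice, so p-values measure only the spread between libraries, which may be technical.

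Most mitochondrial proteins are made in the cytosol as precursors and enter through the TOM complex, where receptors hand them to the channel formed by Tomm40. Precursors with a cleavable presequence then pass to TIM23, carrier proteins are led by small TIM chaperones to TIM22, and the motor around Hspa9 pulls matrix proteins inward. In dendritic cells, as in other immune cells, mitochondria serve both energy metabolism and innate immune signalling.

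Expression was deposited as FPKM, reads scaled to gene length and to the total reads of the library. The columns of replicate 3 repeated the mean of the other 2 libraries, multiplied by 1.0011 in NanoCa and 1.001876 in Mock, so 2 libraries per group were analysed. Library totals recovered from the FPKM steps ran from 22793565 (NanoCa replicate 2) to 31131990 (Mock replicate 1), which makes a single read over 1 kilobase equal to 0.0321 to 0.0439 FPKM. The libraries went against the female label. Xist, the RNA of the inactive X chromosome, had 13639 and 14413 reads in NanoCa but 1 read in each Mock library. Kdm5d, Eif2s3y, Uty and Ddx3y of the Y chromosome, read in all 4 libraries, stood in NanoCa at 29.4% to 40.4% of Mock. These values differed along the groups, so treatment cannot be told apart from a difference in the sex or source of the cells. Of the dendritic cell list, Itgax, Cd74 and H2-Ab1 were present in every library (72.7 FPKM or more), whereas Flt3 and Zbtb46 were at 0.635 FPKM or less. Cd209a was at 0.113 and 0.148 FPKM in NanoCa and 1.41 and 1.48 in Mock. All 6 macrophage and monocyte genes were at 28.6 FPKM or more in every library, so the listed markers do not settle the cell type. Marker lists moved with the groups. Of 4 tested dendritic cell genes 3 were lower and 1, Ccr7, higher, and the list summed to 1220 and 1290 FPKM in NanoCa against 1920 and 1900 in Mock. All 6 proliferation genes were lower (sums of 27.1 and 26.8 against 240 and 230), as were all 5 tested neutrophil genes (50.7 and 62.8 against 227 and 415) and all 3 tested mast cell genes (2.64 and 2.67 against 12.2 and 19.7). Of 6 macrophage and monocyte genes 5 were higher (1960 and 2070 against 1160 and 1120), as were all 3 tested stromal genes (34.5 and 33.0 against 6.80 and 6.99). The B cell, T and NK cell and erythroid sums stayed below 0.4 FPKM in every library, with Ncr1 and Alas2 at 0. The part of these shifts in the results on import genes was not tested, and fewer cells of a type cannot be told apart from less RNA per cell in bulk samples.

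Import genes moved in both directions, with higher and lower calls side by side in the TOM complex and among the small TIM chaperones. Genes with a mean of at least 1 FPKM were tested with limma on log2(FPKM + 1), which covered 11116 genes (adjusted p under 0.05 was called), and 22 of the 26 import genes entered this test. Of those 22, 4 were higher in NanoCa (Timm13, Timm10, Tomm40 and Tomm70a), 11 were lower and 7 did not pass. Over all genes tested, 21.7% were called higher and 49.7% lower, and the median log2 fold change of import genes equalled that of all genes, -0.17. These counts, from FPKM as deposited, are near the background and are no result about the module as a whole. Values did not overlap between the groups for 20 of the 22 genes, against 86.3% of all genes tested.

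Library scaling moved these counts. Median-of-ratios scaling, which equalizes the typical gene, put the median of all genes at 0.00 in place of -0.17, called 33.4% of all genes higher and 32.6% lower, and called 7 import genes higher (the same 4 with Timm23, Timm17a and Tomm40l) and 2 lower (Timm21 and Timm8b). Quantile normalization called 7 higher and 5 lower, against 29.7% and 36.3% of all genes, and limma-voom on recovered reads called 3 higher and 12 lower, against 22.4% and 50.5%. After median-of-ratios scaling and quantile normalization, the share of tested import genes called lower was below that of all genes, a difference that was not tested. Calls on Timm21, Timm8b and Timm13 held in all 15 alternatives run.

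**Figure D1:**
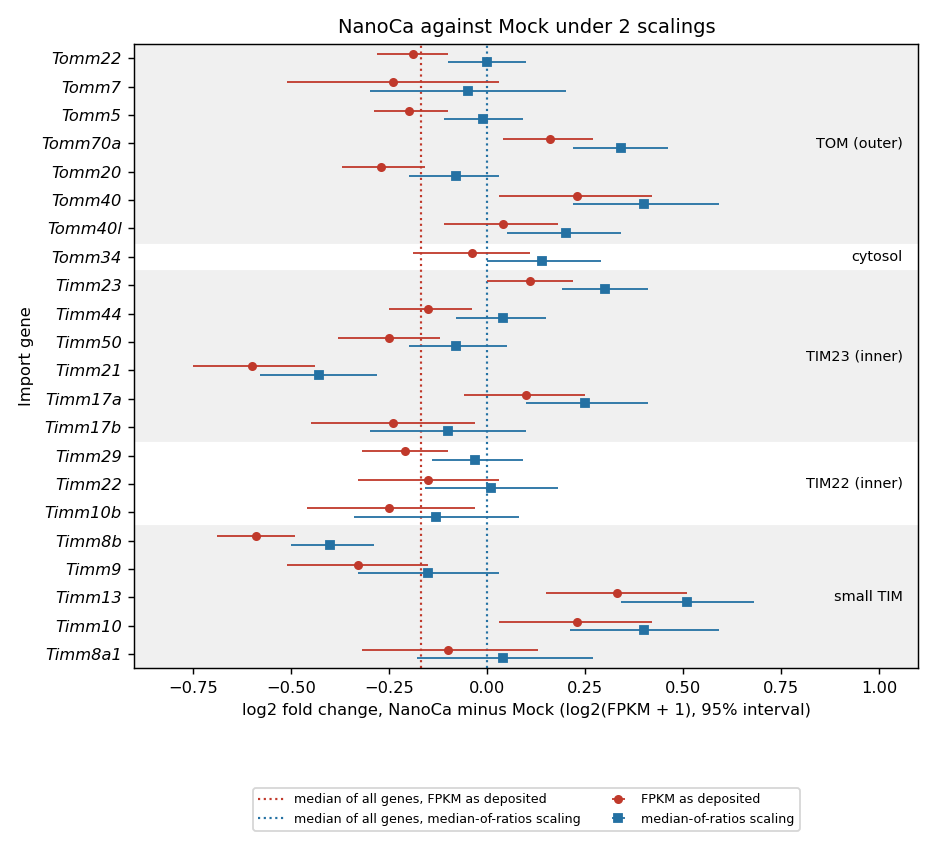
Log2 fold change (horizontal axis, NanoCa minus Mock, log2(FPKM + 1)) of the 22 tested import genes (vertical axis, grouped by complex) from FPKM as deposited (circles) and after median-of-ratios scaling (squares), with 95% intervals from limma and the median of all genes under each as dotted lines. Timm21 and Timm8b lie below 0 under both scalings, while Tomm22, Tomm5 and Timm29 move to near 0 under the second.

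Summed FPKM of all 26 genes was 312 and 317 in NanoCa and 349 and 355 in Mock, or 89.3% of Mock. The outer membrane TOM genes reached 91.5% of Mock (136 ± 4.18 against 149 ± 2.46, SD, n = 2) and the inner membrane TIM23 and TIM22 genes 92.9% (86.7 ± 1.34 against 93.3 ± 1.90). Small TIM genes had the lowest share, 81.3% (78.2 ± 0.254 against 96.2 ± 0.384). Timm8b, the most abundant member of that list, was at 38.4 FPKM in NanoCa against 58.2 in Mock. Of the other tested members Timm9 (78.4%) and Timm8a1 (91.2%) lay below the Mock mean, and Timm10 (119%) and Timm13 (128%) above it. In FPKM as deposited the median log2 fold change of small TIM genes, -0.10, was above that of all genes. Between the membranes, medians of the log2 fold change were close: -0.19 over 7 tested TOM genes and -0.21 over 9 inner membrane genes, a difference of -0.02 that became 0.12 with quantile normalization and -0.12 without NanoCa replicate 1. TOM genes split into 2 higher, 3 lower and 2 not passed, inner membrane genes into 0 higher, 6 lower and 3 not passed. Over all genes tested 21.7% were higher and 49.7% lower, with a median of -0.17. Under median-of-ratios scaling the counts were 3 higher and 0 lower for TOM against 2 higher and 1 lower for the inner membrane. The shares of all genes were then 33.4% higher and 32.6% lower. Whether inner and outer lists differ was not tested.

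**Figure D2:**
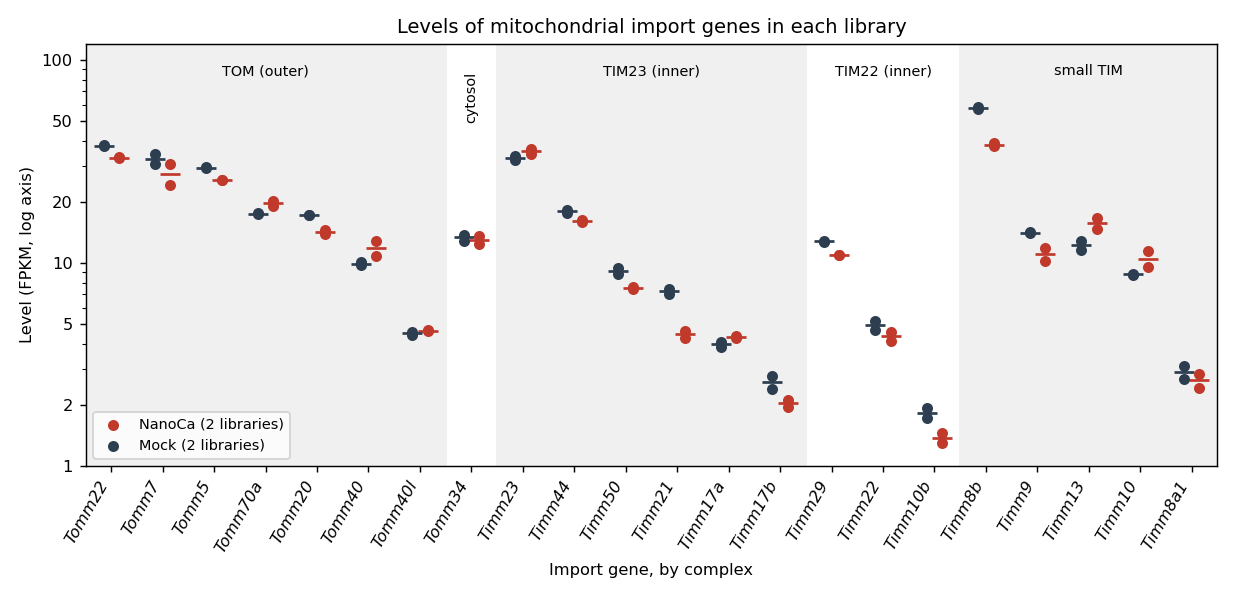
FPKM (vertical axis, log scale) of the 22 tested import genes in each library, grouped by complex along the horizontal axis, with bars at the mean of 2 libraries. Timm8b is the most abundant at 57.5 and 58.8 FPKM in Mock and 37.6 and 39.1 in NanoCa, and Timm10b the least abundant.

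Promoter sequences are shown first for 3 of the import genes that share a start region with a gene on the other strand, since both genes of such a pair could then be compared. Timm17b, Timm29, Timm10b, Tomm34 and Tomm6 also start within 1000 bases of a protein-coding gene on the other strand and are not printed. RefSeq promoters (GRCm38.p6) were found for 23 of the 26 genes. The deposited values use another build, so the coordinates below serve the sequences only. The stretch between the annotated starts is printed 5′ to 3′ on the strand of the import gene, with the letters CCGGAAG, the core bound by GABP and other ETS factors, in capitals where present. The intervals are chr9:50603850-50603900 (plus strand) for Timm8b and Sdhd, chr12:71136709-71136847 (minus strand) for Timm9 and 2700049A03Rik, and chr14:32201899-32201929 (minus strand) for Timm23 and Parg.
Timm8b and Sdhd: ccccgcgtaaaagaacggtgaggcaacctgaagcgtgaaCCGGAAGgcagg
Timm9 and 2700049A03Rik: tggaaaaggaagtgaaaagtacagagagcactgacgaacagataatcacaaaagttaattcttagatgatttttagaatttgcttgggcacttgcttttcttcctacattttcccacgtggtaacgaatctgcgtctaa
Timm23 and Parg: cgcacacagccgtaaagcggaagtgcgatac
The Timm8b stretch is 51 bases long with 60.8% G and C, that of Timm9 is 139 bases with 37.4%, and that of Timm23 is 31 bases with 58.1%.

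GABP and NRF1 are regulators long known for nuclear genes of mitochondrial proteins. The core CCGGAAG was searched on both strands in the 250 bases before each start. It was found in 7 of the 19 tested import genes with a promoter sequence (36.8%), against 15.5% of 8521 promoters of all genes tested. Whether these shares differ was not tested, and the 250 bases can reach into a gene that starts close by on the other strand. The NRF1 letters GCATGCGC were found in 1 of the 19 (5.26%), Timm13, against 4.93%. Windows of 60 bases around a match are printed for 4 genes as examples, 5′ to 3′ on the strand of the gene, with the matched letters in capitals. They lie at chr2:84826961-84827020 (plus) for Timm10, chr10:80901128-80901187 (minus) for Timm13, chr15:79670796-79670855 (plus) for Tomm22 and chr16:57121607-57121666 (plus) for Tomm70a.
Timm10: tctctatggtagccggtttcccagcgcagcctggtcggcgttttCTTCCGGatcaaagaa
Timm13: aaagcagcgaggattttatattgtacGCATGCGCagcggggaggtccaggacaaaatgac
Tomm22: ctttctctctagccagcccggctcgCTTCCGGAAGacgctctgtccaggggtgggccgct
Tomm70a: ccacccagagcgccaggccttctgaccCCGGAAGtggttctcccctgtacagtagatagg
In Timm10 the core stands on the opposite strand, and in Tomm22 the capitals hold 2 matches that overlap on opposite strands. Tomm70a has 2 matches in its 250 bases, of which the window holds 1. The tested genes with the core were Timm10, Timm8b, Timm23, Timm29, Tomm22, Tomm34 and Tomm70a, whose log2 fold changes ran from -0.59 (Timm8b) to 0.23 (Timm10). A match of letters is a description of the promoter and not a binding site.

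Among the small TIM chaperones, some genes of partners that assemble with each other went apart in FPKM as deposited. The known hexamers join Timm9 with Timm10 and Timm8 with Timm13. Of these genes, Timm8b and Timm9 were lower in NanoCa and Timm13 and Timm10 higher. Timm8a1, the other tested Timm8 gene, did not pass (log2 fold change -0.10, limma adjusted p = 0.372). The call on Timm9 was not made after median-of-ratios scaling (limma adjusted p = 0.126) or quantile normalization (limma adjusted p = 0.0809). Timm8b (ENSMUSG00000039016, chromosome 9) was at 37.6 and 39.1 FPKM in NanoCa and 58.8 and 57.5 in Mock, from 462 to 948 reads per library. Both NanoCa values lay below both Mock values. It fell to 65.9% of Mock (log2 fold change -0.59, SE 0.040, limma adjusted p = 4.96e-05), and the fall was also called after median-of-ratios scaling (-0.40, adjusted p = 0.000268). Timm13 (ENSMUSG00000020219, chromosome 10), its partner in the chaperone that escorts Timm23 itself in yeast, was at 14.7 and 16.6 FPKM in NanoCa and 11.6 and 12.8 in Mock. It rose without overlap of the groups (log2 fold change 0.33, SE 0.075, limma adjusted p = 0.00807; 0.51 after median-of-ratios scaling).

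Timm9 (ENSMUSG00000021079, chromosome 12) and Timm10 (ENSMUSG00000027076, chromosome 2) form the chaperone that carries metabolite carriers across the intermembrane space. Timm9 was at 11.9 and 10.2 FPKM in NanoCa and 14.2 and 14.0 in Mock, all NanoCa values being lower. Its log2 fold change was -0.33 (SE 0.075, limma adjusted p = 0.00817), and -0.15 (adjusted p = 0.126) after median-of-ratios scaling. Timm10 stood at 11.4 and 9.60 FPKM in NanoCa and 8.71 and 8.86 in Mock, so its groups did not overlap either. Timm10 rose by a log2 fold change of 0.23 (SE 0.079, limma adjusted p = 0.0408), a call that limma-voom on recovered reads did not make (0.25, adjusted p = 0.077). It also rested on single libraries: the value was 0.12 without NanoCa replicate 1 (adjusted p = 0.152), 0.21 without Mock replicate 1 (0.0838) and 0.24 without Mock replicate 2 (0.0585).

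Timm8a1, the mouse counterpart of the human gene mutated in deafness-dystonia syndrome, was at 2.43 and 2.84 FPKM in NanoCa and 3.10 and 2.69 in Mock. The groups overlapped, and the log2 fold change of -0.10 (95% interval -0.32 to 0.13, limma adjusted p = 0.372) was 0.04 after median-of-ratios scaling. The gene lies on chromosome X and shares 612 bases without a mismatch with the pseudogene Gm9797, listed at 0.0716 FPKM or less. Timm8a2 had 1 read in 3 libraries and 0 in NanoCa replicate 2, under the 3 reads that a count of 0 allows, and was not tested.

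Ratios of FPKM between genes within a library are the same under any scaling by 1 factor per library, which includes median-of-ratios but not quantile normalization. The ratio of Timm8b to Timm13 was 2.56 and 2.35 in NanoCa and 5.05 and 4.48 in Mock. Both NanoCa values were thus well below Mock, with a mean ratio at 51.6% of Mock. Timm9 to Timm10 was 1.05 and 1.06 in NanoCa and 1.63 and 1.57 in Mock, or 65.8% of Mock. The size of such a ratio depends on the gene lengths used for FPKM, so only its change between groups is described. Tomm40 to Tomm40l, with the gene of the higher log2 fold change on top, was 2.35 and 2.74 in NanoCa and 2.21 and 2.20 in Mock. In the pairs before it the gene with the lower log2 fold change is on top, so the direction of each ratio follows from that choice. Pairs were chosen with the values known and are described without a test, and 2 libraries against 2 could not reach an exact two-sided permutation p below 0.333.

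**Figure D3:**
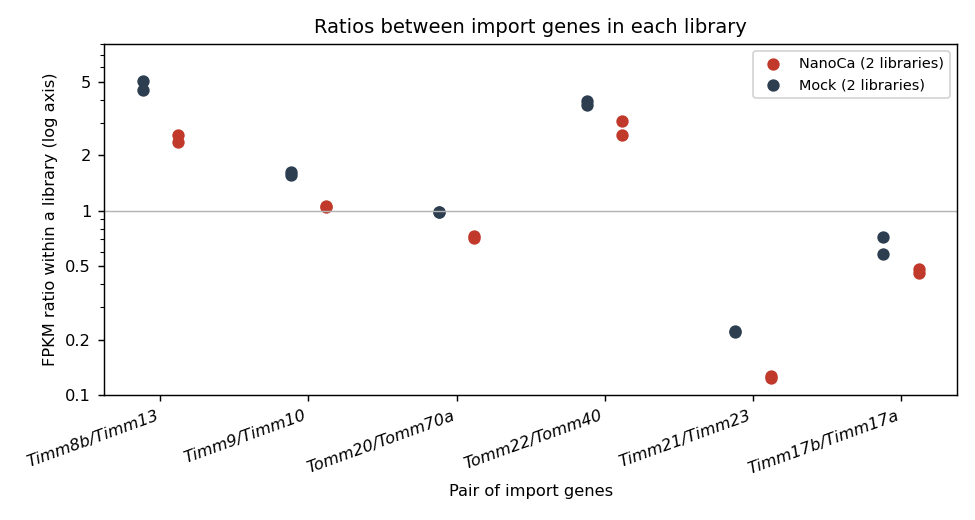
Ratio of the FPKM of 2 import genes within each library (vertical axis, log scale) for 6 pairs of genes (horizontal axis), with 2 NanoCa and 2 Mock libraries. The gene with the lower log2 fold change was put on top of each ratio, so the NanoCa values lie below Mock by that choice, by most for Timm8b to Timm13 (2.35 and 2.56 against 4.48 and 5.05).

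The TIM23 complex imports presequence proteins into and across the inner membrane. Of its 6 genes, 4 were lower (Timm21, Timm50, Timm17b and Timm44), against 49.7% of all genes tested, and 2 did not pass (Timm23 and Timm17a). After median-of-ratios scaling 2 were higher and 1 lower, against 33.4% and 32.6% of all genes. Timm23 (ENSMUSG00000013701, chromosome 14), the channel subunit, was at 36.4 and 34.6 FPKM in NanoCa and 32.1 and 33.6 in Mock. Its NanoCa values were higher without overlap, but the log2 fold change of 0.11 (95% interval 0.00 to 0.22) did not pass the threshold (limma adjusted p = 0.0717). It passed after median-of-ratios scaling (0.30, adjusted p = 0.00139) and with quantile normalization (0.13, adjusted p = 0.0432). Several near-identical copies of Timm23, among them Gm10273 with 99.9% identity over 1121 bases, were listed at 0.0699 FPKM or less, and how reads shared with them were assigned is not given in the sources used here.

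Timm21 (ENSMUSG00000024645, chromosome 18), which in yeast contacts both the TOM complex and the respiratory chain, had the lowest log2 fold change of the 22 tested genes in FPKM as deposited, next to Timm8b, and was above Timm8b with quantile normalization (-0.39 against -0.62). It was at 4.62 and 4.28 FPKM in NanoCa (268 and 236 reads) and 7.03 and 7.47 in Mock (529 and 487 reads). Both NanoCa libraries lay below both Mock libraries, at 61.4% of Mock. The log2 fold change was -0.60 (SE 0.063, limma adjusted p = 0.000291) and -0.43 after median-of-ratios scaling (adjusted p = 0.000953). Relative to Timm23 in the same library, Timm21 was at 0.127 and 0.124 in NanoCa and 0.219 and 0.222 in Mock.

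Timm50, the receptor of TIM23 that takes over presequences, was at 7.46 and 7.59 FPKM in NanoCa and 8.86 and 9.40 in Mock. Timm50 was lower without overlap (log2 fold change -0.25, SE 0.053, limma adjusted p = 0.00611), a call not made after median-of-ratios scaling (-0.08, adjusted p = 0.237) or quantile normalization (-0.07, adjusted p = 0.300). Timm44, which tethers the import motor to the channel, was at 16.3 and 16.0 FPKM in NanoCa and 18.2 and 17.7 in Mock. Its log2 fold change of -0.15 (SE 0.042, limma adjusted p = 0.0206) turned to 0.04 after median-of-ratios scaling (adjusted p = 0.530). The call was also lost without NanoCa replicate 1 (-0.16, adjusted p = 0.0507), NanoCa replicate 2 (-0.14, 0.0774) or Mock replicate 1 (-0.13, 0.110).

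Timm17a and Timm17b are paralogs that take the same place beside Timm23. Timm17a was at 4.27 and 4.35 FPKM in NanoCa and 4.09 and 3.84 in Mock, a log2 fold change of 0.10 (95% interval -0.06 to 0.25, limma adjusted p = 0.208), and it was called higher after median-of-ratios scaling (0.25, adjusted p = 0.0128). Timm17b, on chromosome X, was at 1.96 and 2.10 FPKM in NanoCa and 2.39 and 2.77 in Mock. Neither paralog overlapped between the groups, one being higher and the other lower in NanoCa. The log2 fold change of Timm17b, -0.24 (SE 0.085, limma adjusted p = 0.0445), did not stand after median-of-ratios scaling (-0.10, adjusted p = 0.308), and without NanoCa replicate 1 (-0.21, 0.154), NanoCa replicate 2 (-0.27, 0.0774) or Mock replicate 2 (-0.16, 0.231). The ratio of Timm17b to Timm17a was 0.460 and 0.483 in NanoCa and 0.584 and 0.721 in Mock.

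All 3 TIM22 genes had a log2 fold change below 0 in FPKM as deposited, as did 7395 of the 11116 genes tested. Their median of -0.21 was close to that of all genes, -0.17. Timm29, a subunit of the human TIM22 complex, was at 11.0 and 10.9 FPKM in NanoCa and 12.9 and 12.7 in Mock (log2 fold change -0.21, SE 0.044, limma adjusted p = 0.00622; -0.03 and adjusted p = 0.615 after median-of-ratios scaling). Timm22, the carrier translocase, was at 4.14 and 4.56 FPKM in NanoCa and 4.69 and 5.20 in Mock, and did not pass (-0.15, 95% interval -0.33 to 0.03, limma adjusted p = 0.114; 0.01 after median-of-ratios scaling). Neither gene overlapped between the groups. Timm10b, a small TIM that docks on TIM22, was lower at 1.45 and 1.30 FPKM against 1.72 and 1.93 (log2 fold change -0.25, SE 0.088, limma adjusted p = 0.0439). Leaving out any 1 library ended that call, with adjusted p from 0.0549 (without Mock replicate 1) to 0.196 (without Mock replicate 2) and 0.0702 and 0.168 without NanoCa replicates 1 and 2, and so did median-of-ratios scaling (-0.13, adjusted p = 0.238). Timm10b also overlaps Arfip2, which starts 360 bases away on the other strand at 6.85 to 8.21 FPKM, and without a stated strand setting reads in the overlap cannot be told apart.

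In the outer membrane, receptor genes moved in opposite directions in FPKM as deposited. Tomm20 (ENSMUSG00000093904), the receptor for presequences, was at 14.5 and 13.9 FPKM in NanoCa and 17.3 and 17.2 in Mock. Tomm70a (ENSMUSG00000022752), the receptor for carriers and other precursors with internal signals and, in human cells, a docking site of the antiviral adaptor MAVS, was at 20.3 and 19.0 FPKM in NanoCa and 17.6 and 17.4 in Mock. Tomm20 was lower and Tomm70a higher in both NanoCa libraries, without overlap.

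Tomm20 fell by 0.27 on the log2 scale (log2 fold change -0.27, SE 0.045, limma adjusted p = 0.00228), a call not made after median-of-ratios scaling (-0.08, adjusted p = 0.170). Tomm70a rose by a log2 fold change of 0.16 (SE 0.048, limma adjusted p = 0.0264; 0.34 and adjusted p = 0.00121 after median-of-ratios scaling). The Tomm70a call was lost without NanoCa replicate 1 (0.11, adjusted p = 0.122), Mock replicate 1 (0.17, 0.0602) or Mock replicate 2 (0.15, 0.0895). Their ratio, Tomm20 to Tomm70a, was 0.714 and 0.731 in NanoCa and 0.981 and 0.988 in Mock, at 73.3% of Mock. Copies of Tomm20 include the pseudogene Gm14494, identical over 99.5% of 435 bases and listed at 0.101 to 0.665 FPKM.

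Tomm40 (ENSMUSG00000002984), which forms the channel of the outer membrane, was at 10.8 and 12.8 FPKM in NanoCa and 9.74 and 10.1 in Mock. Tomm40 was higher without overlap (log2 fold change 0.23, SE 0.080, limma adjusted p = 0.0431; 0.40 and adjusted p = 0.00362 after median-of-ratios scaling), although NanoCa replicate 2 decided the first call (0.11, adjusted p = 0.165 without it) and Mock replicate 1 was also needed (0.20, 0.0997 without it). Tomm22, the central receptor that holds TOM complexes together, was at 33.2 and 32.9 FPKM in NanoCa and 38.2 and 37.6 in Mock. Its log2 fold change was -0.19 (SE 0.037, limma adjusted p = 0.00415) in FPKM as deposited and 0.00 (adjusted p = 0.939) after median-of-ratios scaling. The ratio of Tomm22 to Tomm40 was 3.07 and 2.57 in NanoCa and 3.92 and 3.72 in Mock. The groups did not overlap.

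The paralog Tomm40l did not pass in FPKM as deposited, at 4.61 and 4.67 FPKM in NanoCa and 4.41 and 4.59 in Mock (log2 fold change 0.04, limma adjusted p = 0.587), and was called higher after median-of-ratios scaling (0.20, adjusted p = 0.0235). It shares 2119 bases with the overlapping gene Nr1i3, itself at 0.0871 FPKM or less. Among the small TOM subunits, which stabilize the complex, Tomm5 was at 25.7 and 25.5 FPKM in NanoCa and 29.4 and 29.6 in Mock (log2 fold change -0.20, SE 0.038, limma adjusted p = 0.00398; -0.01 after median-of-ratios scaling). Tomm7 was more variable, at 24.3 and 30.6 FPKM in NanoCa and 30.6 and 34.3 in Mock, and its log2 fold change of -0.24 (95% interval -0.51 to 0.03) missed the threshold (limma adjusted p = 0.0924). Limma-voom on recovered reads called Tomm7 lower (-0.25, adjusted p = 0.0188). The value depended on the libraries, with -0.40 (adjusted p = 0.00632) without NanoCa replicate 2 and -0.32 (0.0352) without Mock replicate 1, but -0.08 (0.389) without NanoCa replicate 1 and -0.16 (0.236) without Mock replicate 2.

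Rows that were not tested complete the outer membrane list. Tomm20l, a paralog of Tomm20, had no read in any library. Tomm6, a small TOM subunit, had 2, 1, 1 and 0 reads, at or under 3 reads in each library, so no fold is given. That gene shares 656 bases without a mismatch with the overlapping gene Gm21981 and 226 bases with its antisense RNA Tomm6os. How the authors counted reads that fall in several genes is not given, so the near absence of Tomm6 in the table is a property of these counts. Read counts of Tomm6os were 16 and 23 in the NanoCa libraries, against 22 and 26 in Mock, which overlapped. Tomm34, a cytosolic co-chaperone of precursors, was at 12.4 and 13.6 FPKM in NanoCa and 12.9 and 13.8 in Mock, with overlapping groups (log2 fold change -0.04, 95% interval -0.19 to 0.11, limma adjusted p = 0.618; 0.14 after median-of-ratios scaling).

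Genes that start beside an import gene on the other strand gave a comparison that the rule had not used. These neighbours were chosen after their values were seen, and distances between starts are those of GENCODE M21, which differ from the RefSeq stretches printed for the promoters. Sdhd, a subunit of respiratory complex II whose start lies 98 bases from that of Timm8b, stood at 64.0 and 62.2 FPKM in NanoCa and 91.9 and 93.6 in Mock. It fell without overlap, like Timm8b (log2 fold change -0.55, SE 0.037, limma adjusted p = 4.90e-05; -0.36 after median-of-ratios scaling). The ratio of Timm8b to Sdhd was 0.587 and 0.629 in NanoCa and 0.640 and 0.615 in Mock, which overlapped.

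Other pairs did not all follow this pattern. 2700049A03Rik, whose start lies 164 bases from that of Timm9, was at 1.24 and 1.09 FPKM in NanoCa and 2.97 and 2.79 in Mock, and fell further than Timm9 (log2 fold change -0.84, limma adjusted p = 0.000218; -0.72 after median-of-ratios scaling). Parg, 51 bases from Timm23 and encoding the enzyme that degrades poly(ADP-ribose), was lower at 8.93 and 8.64 against 11.2 and 10.6 FPKM (log2 fold change -0.28, limma adjusted p = 0.00315; -0.11 and adjusted p = 0.127 after median-of-ratios scaling), while Timm23 had a positive value. Pqbp1, 88 bases from Timm17b, was at 17.7 and 17.8 against 18.8 and 21.2 FPKM and did not pass (-0.16, limma adjusted p = 0.0592; 0.03 after median-of-ratios scaling). Its value was -0.24 without Mock replicate 1, which was called lower (adjusted p = 0.00980), and -0.08 without Mock replicate 2 (0.318). Farther apart or overlapping at their starts, Stk4 was lower (-0.37, limma adjusted p = 0.000248) beside Tomm34, Arfip2 was lower (-0.18, adjusted p = 0.0270) beside Timm10b, and Yipf2 did not pass (-0.04, adjusted p = 0.605) beside Timm29. Frs3, beside the untested Tomm6, was higher (0.34, adjusted p = 0.0324). After median-of-ratios scaling Stk4 (-0.19) and Frs3 (0.46) were still called and Arfip2 (-0.01, adjusted p = 0.889) was not. Whether neighbours are more alike than other gene pairs was not tested.

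**Figure D4:**
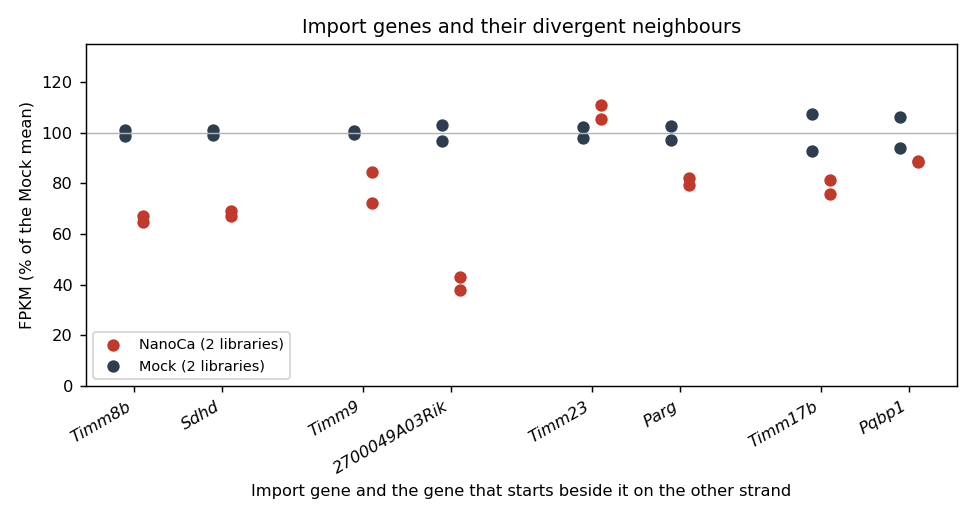
FPKM in each library as a percentage of the Mock mean (vertical axis) for 4 import genes and the gene that starts beside each on the other strand (horizontal axis), with 2 NanoCa and 2 Mock libraries. Timm8b and Sdhd lie at similar percentages in NanoCa, whereas Timm23 lies above 100% and Parg below.

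Around the TIM and TOM genes, 67 other genes of protein import were listed in 10 groups, and 65 were tested. Of these, 14 were higher, 34 lower and 17 did not pass (median log2 fold change -0.18, against -0.17 over all genes), where 21.7% of all genes were higher and 49.7% lower. After median-of-ratios scaling 25 were higher and 17 lower, against 33.4% and 32.6% of all genes. The counts of single lists that follow have the same shares of all genes as their background. Hspa9, the mitochondrial Hsp70 of the import motor, was at 136 and 133 FPKM in NanoCa and 79.6 and 79.8 in Mock. It rose without overlap by a log2 fold change of 0.75 (SE 0.036, limma adjusted p = 1.18e-05). Of the 7 other genes listed with Hspa9, Pam16 rose (0.21, limma adjusted p = 0.0130). Dnajc15 (-0.40, adjusted p = 0.00129), Grpel2 (-0.27, 0.00855) and Dnajc19 (-0.23, 0.00901) were lower, and Grpel1, Dnlz and Romo1 did not pass. After median-of-ratios scaling Pam16 (0.38) and Dnajc15 (-0.23) were still called, Grpel2 and Dnajc19 were not, and Romo1 was called higher (0.25, adjusted p = 0.0289).

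All 7 genes of MICOS, the complex that shapes the junctions of cristae, were lower in NanoCa, against 49.7% of all genes, and 4 of them were called lower after median-of-ratios scaling, against 32.6%. Apoo had the lowest value, at 3.73 and 4.36 FPKM against 7.70 and 7.82 in Mock (log2 fold change -0.80, SE 0.074, limma adjusted p = 0.000177). Of the disulfide relay that oxidizes the small TIM proteins, Chchd4, the oxidoreductase that receives them, rose from 3.38 and 3.57 FPKM in Mock to 4.98 and 5.38 in NanoCa (0.47, SE 0.066, limma adjusted p = 0.00107). Its partner Aifm1 fell, at 13.5 and 12.8 FPKM in NanoCa and 22.1 and 20.8 in Mock (-0.67, SE 0.052, limma adjusted p = 8.25e-05), and Gfer, which reoxidizes Chchd4, did not pass (0.06, adjusted p = 0.381) but was called higher after median-of-ratios scaling (0.22, adjusted p = 0.0186). Chchd4 was named after its values were seen.

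Among outer membrane insertases and the SAM complex, which assembles barrel proteins such as Tomm40, 5 of 6 genes were lower and 1 higher, and Mtch2 (log2 fold change -0.41, limma adjusted p = 0.000164) and Mtch1 (-0.24, adjusted p = 0.00143) had the smallest adjusted p. Only Mtch2 of these 5 was called lower after median-of-ratios scaling (-0.22, adjusted p = 0.00252). Inner membrane insertion genes diverged: Oxa1l, the insertase for proteins made in the matrix, fell (-0.55, limma adjusted p = 0.000149), as did the complex III assembly factor Bcs1l (-0.59, adjusted p = 0.00141), while Cox18, which inserts a cytochrome oxidase subunit, rose (0.62, adjusted p = 0.000853). These 3 calls stood after median-of-ratios scaling at -0.37, -0.45 and 0.78.

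For processing and folding after import, 5 of 6 tested peptidase genes were lower and 0 higher, where median-of-ratios scaling left 2 lower and quantile normalization also 2. Mipep, the intermediate peptidase, had a log2 fold change of -0.52 (limma adjusted p = 0.00165). Matrix chaperonin and protease genes split 3 higher, 3 lower and 4 not passed, and after median-of-ratios scaling 7 higher and 1 lower. Afg3l2, a subunit of the inner membrane AAA protease, rose from 16.1 and 16.5 FPKM in Mock to 26.5 and 27.3 in NanoCa (0.69, SE 0.042, limma adjusted p = 3.16e-05). The import surveillance list gave 2 higher and 6 lower of 9 tested, and 3 higher and 3 lower after median-of-ratios scaling. Pink1, a kinase that accumulates on TOM when import fails, was at 11.5 and 11.7 FPKM in NanoCa and 17.6 and 18.7 in Mock (-0.60, limma adjusted p = 0.000104). Eif2ak1, the kinase that signals mitochondrial stress to translation, was also lower (-0.53, adjusted p = 0.000500).

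Cytosolic chaperones that keep precursors unfolded split 3 higher and 2 lower of 9 in FPKM as deposited, and 6 higher and 2 lower after median-of-ratios scaling. Hsp90aa1, which delivers precursors to Tomm70a, rose from 322 and 306 FPKM in Mock to 582 and 555 in NanoCa (log2 fold change 0.85, SE 0.046, limma adjusted p = 1.98e-05). Naca, a subunit of the nascent chain complex at the ribosome, fell (-0.50, limma adjusted p = 0.000156). The outer membrane channels Vdac3 (0.16, limma adjusted p = 0.0202) and Vdac1 (-0.09, adjusted p = 0.101) had log2 fold changes nearer to 0, and Vdac1 turned to 0.11 after median-of-ratios scaling. Vdac3 lost its call with quantile normalization, with no filter on low values, and without NanoCa replicate 1 (0.12) or Mock replicate 2 (0.13).

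**Figure D5:**
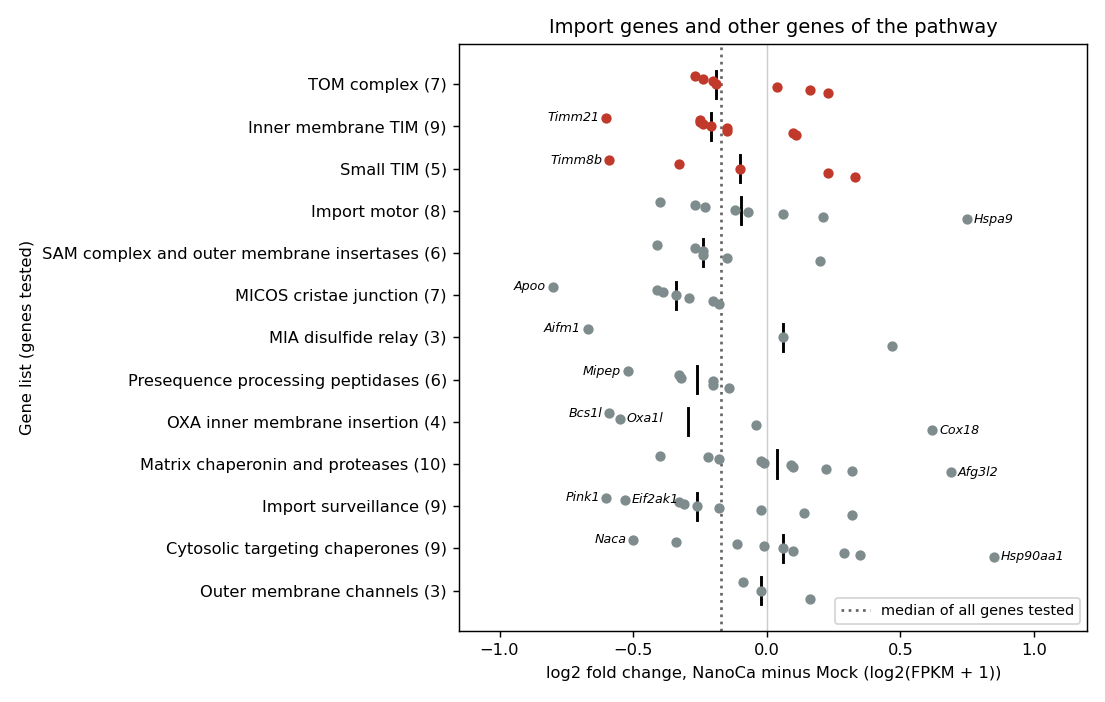
Log2 fold change (horizontal axis, NanoCa minus Mock, log2(FPKM + 1)) of tested genes in 3 lists of TIM and TOM genes (red) and 10 lists of other import genes (grey), with black bars at list medians, a dotted line at the median of all genes (-0.17), and names for genes with an absolute value of at least 0.5. Hspa9, Cox18, Afg3l2 and Hsp90aa1 stand to the right, Apoo and Aifm1 farthest to the left.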

How the data were processed

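The FPKM values are as deposited by the authors, in 1 table for the series, per the file headers. Per the submitters' processing notes, reads were placed on GRCm39. The labels' protocols name trizol extraction and SMARTER mRNA library preparation. The aligner, the counter and the strand setting were not given in the sources used here. Replicate 3 of each group is a scaled mean of the others and carries no spread, so it entered no main test.

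Whole reads were recovered from the FPKM steps for 23929 of 23929 genes with a value (100% of values whole, and 98.9% of genes at an annotated transcript length). Genes at a mean FPKM of 1 or more were tested with limma 3.58.1 (lmFit, eBayes with trend) in R 4.3.3 on log2(FPKM + 1), which understates changes of low genes. P-values are two-sided and Benjamini-Hochberg adjusted over 11116 genes, with 0.05 as the threshold. The test was tried on simulated data. On the recovered reads limma-voom called 2487 genes higher and 5609 lower, against 2409 and 5520. Counting error alone falls with reads, so genes with few reads are less precise.

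Gene identifiers matched GENCODE M21 (GRCm38) for 99.5% of rows, used for chromosomes, lengths, neighbours and copies (blastn 2.17.0+, at least 95% identity over 150 bases). Promoters are RefSeq, GRCm38.p6. Python 3.11.15 was used for tables. All import genes were named. Of each other pathway list, genes past the threshold with an absolute log2 fold change of at least 0.5 were named, or else the 2 with the smallest adjusted p, and the remaining ones named in the text were chosen after their values were seen. Members, lists and tests were chosen with earlier results of these data known.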

Additional observations from a re-analysis of the deposited data

How the results depend on the processing

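Scaling moved most counts and the depth of 2 libraries per group limits them all. Median-of-ratios scaling gave 3717 genes higher and 3620 lower, 7 import genes higher and 2 lower, TOM genes 0 lower, inner membrane genes 2 higher and 1 lower, and small TIM genes 1 lower. Limma-voom with the same scaling, chosen after seeing the data, gave 3860 genes higher, 7 import genes higher and 2 lower, TOM genes 0 lower, inner membrane genes 2 higher and 1 lower, and small TIM genes 1 lower. Medians became 0.00 for TOM, -0.03 for the inner membrane and 0.00 for all genes under both. Quantile normalization gave 7 import genes higher and 5 lower, inner membrane genes 2 higher and 1 lower, small TIM genes 1 lower, and medians of -0.02 (inner membrane), 0.13 (small TIM), -0.04 (all genes) and 0.12 (inner minus TOM). With no filter on low values 1 import gene, 0 TOM genes and 1 small TIM gene were higher, and medians were -0.08 (TOM), -0.03 (all genes) and -0.13 (inner minus TOM). Limma-voom on recovered reads called 1 small TIM gene higher, with a median of all genes of -0.20. That median was -0.19 and -0.20 with pseudocounts of 0.1 and 0.01, and -0.15 at a mean FPKM of at least 5. All 6 columns together called 2 inner membrane genes higher. Signs turned for Tomm34 (0.14, quantile 0.12, limma-voom with median-of-ratios 0.16), Timm44 (0.04 and 0.04), Timm22 (0.01, 0.06 and 0.01), Timm8a1 (0.04, 0.13 and 0.05), Vdac1 (0.11 and 0.11) and Pqbp1 (0.03 and 0.03), and for Tomm34 without NanoCa replicate 1 (0.03) or Mock replicate 2 (0.01), within a range of -0.10 to 0.03 over single libraries left out. The causes were not tested.

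Leaving out 1 library at a time, with the lone library assumed to vary like the other group, gave 2107 to 2324 genes higher and 4869 to 5140 lower, 1 to 3 import genes higher and 8 to 10 lower, TOM genes 0 to 1 higher and 3 to 4 lower, inner membrane genes 0 higher and 3 to 4 lower, and small TIM genes 1 to 2 higher and 2 lower. Medians ran from -0.19 to -0.08 (TOM), -0.21 to -0.17 (inner membrane), -0.18 to -0.02 (small TIM), -0.18 to -0.15 (all genes) and -0.12 to 0.00 (inner minus TOM). Replicate numbers do not pair the libraries by the labels, and deviations of same-numbered libraries correlated at 0.133 over 11116 genes. With a replicate block 2538 genes were higher and 5691 lower, and 4 import genes were higher and 11 lower; Tomm7 gained a call (adjusted p = 0.00675) and Timm10b lost one (adjusted p = 0.0620). Over alternatives that answer a comparison, 124 values stayed and 42 moved, where the settings with 1 library left out were not counted.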
